A study of Mus musculus with 23 samples.

Results

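The 10 genes described here were grouped as endothelial identity genes, although Hlx is known from blood cell and gut development. They are the transcription factor genes Erg, Fli1, Sox17, Sox18 and Hlx, the receptor genes Tie1 and Robo4, the gene of the secreted factor Egfl7, and the genes of the surface sialomucins Emcn and Cd34. They were taken by gene symbol from the array annotation, with 1 probe set for each gene, and they are 10 of the 24704 genes measured. Primary mouse aortic endothelial cells (MAOEC), a bought stock of the cells that line the aorta, were grown to confluence and then kept for 48 h in medium in which 10% mouse plasma took the place of serum. The plasma came from ApoE-Stab2-KO mice (n = 6 arrays), which lack apolipoprotein E and the scavenger receptor Stabilin-2, from ApoE-Stab1-KO mice (n = 6), which lack apolipoprotein E and Stabilin-1, from ApoE-KO mice (n = 5), which lack apolipoprotein E alone, or from wildtype mice (n = 6). All knockout donors therefore lacked apolipoprotein E, and all had received Western diet for 8 weeks. For wildtype donors no diet is stated, so against wildtype plasma the effects of genotype and diet cannot be told apart. Only the donors were mutant, the cells being the same throughout, and every sample carries the strain label C57BL/6J. Nothing in the labels says whether replicates were separate cultures or donors or had pooled plasma, so the p-values reflect a spread that may be technical.

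Endothelial cells hold their identity through a small set of DNA-binding proteins that work together. ETS-family factors such as ERG and FLI1 bind a GGAA core in the promoters and enhancers of endothelial genes, and SOX factors of the F group, SOX17 and SOX18, act beside them in arterial and lymphatic development. Among the genes under such control are cell-surface receptors, sialomucins and the secreted protein EGFL7, whose gene also carries the microRNA miR-126.

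The deposited values are log2 intensities after RMA, a method that corrects background, gives all arrays 1 common distribution and summarizes the probes of each set. They ranged from 2.52 to 13.9 with a median gene at 4.31, the correlation of one array with another across genes was 0.992 to 0.997, and the median standard error of a difference between groups was 0.07. The endothelial markers Pecam1 (12.44 to 12.48 as group means) and Cdh5 (12.72 to 12.81) were high in all groups, while Ptprc, the pan-leukocyte marker, stayed at 2.91 to 3.04 and Prox1, the lymphatic regulator, at 3.23 to 3.30. Lyve1, often used as a lymphatic and macrophage marker, was high (12.70 to 12.79), and so was Cd68 (11.10 to 11.29), a lysosomal protein of macrophages and other cells. Of the remaining genes in the lymphatic list, Flt4 stood at 9.59 to 9.69 and Pdpn at 4.87 to 5.16. Marker lists covered smooth muscle (7 genes), fibroblasts (7), macrophages and leukocytes (7), lymphatic endothelium (4) and red blood cells (3). In each of the 6 comparisons 0 of these genes passed the test, where 0.00405% to 0.53% of all genes did. A count of 0 in lists this short therefore says little about the cells present. Over the arrays the mean level of these lists ran from 4.05 to 4.21, 3.98 to 4.14, 4.54 to 4.71, 7.56 to 7.79 and 2.91 to 3.15, in that order. ApoE-Stab1-KO replicate 3 stood apart within its group, with the lowest mean level of the other endothelial markers (10.16, next 10.28) and of the other endothelial transcription factors (8.05, next 8.12). Without it, the difference of Egfl7 between ApoE-Stab1-KO and wildtype plasma was -0.22 (limma adjusted p = 0.0231) and that of Hlx was -0.31 (limma adjusted p = 0.0803). In a lysate of many cells, fewer cells of a type and less RNA per cell cannot be told apart.

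Of the 10 genes, Egfl7 and Hlx were lower with knockout plasma than with wildtype plasma, and the other 8 passed the test in no comparison. A gene is called here when its limma p-value, adjusted by Benjamini-Hochberg over all 24704 genes, is under 0.05. With ApoE-Stab2-KO plasma Hlx was called, 1 of the 10 genes, where 0.0648% of all genes were called lower and 0.178% in either direction. With ApoE-Stab1-KO plasma both Egfl7 and Hlx were called lower, 2 of 10, against 0.19% of all genes called lower and 0.364% in either direction. With ApoE-KO plasma the same 2 of 10 were called lower, against 0.19% of all genes called lower and 0.53% in either direction. All 3 comparisons share the 6 wildtype arrays. The 10 genes were chosen with earlier results of these data known, so these counts are not independent evidence about them as a set. In the moderated F-test over the 4 plasma groups, Egfl7 (limma adjusted p = 0.0046) and Hlx (limma adjusted p = 0.0129) were called, 2 of 10 against 0.546% of all genes. Before adjustment 3, 4 and 4 of the 10 genes were lower with ApoE-Stab2-KO, ApoE-Stab1-KO and ApoE-KO plasma at a limma p under 0.05, and 0 were higher, where 4.22%, 5.55% and 5.12% of all genes were lower. The F-test gave limma adjusted p-values of 0.145 for Emcn, 0.189 for Sox18 and 0.722 to 0.904 for the remaining 6.

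The differences from wildtype plasma were small, and most were negative. With ApoE-Stab2-KO plasma 9 of the 10 differences were below 0 (51% over all genes) and their median was -0.06, with the median of all genes at 0.00. With ApoE-Stab1-KO plasma 7 of 10 were below 0 (48.2% over all genes), with a median of -0.08. With ApoE-KO plasma 9 of 10 were below 0 (48.8% over all genes), with a median of -0.06. The largest of these differences, that of Hlx with ApoE-Stab2-KO plasma, was a level 0.749 times that with wildtype plasma.

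**Figure D1:**
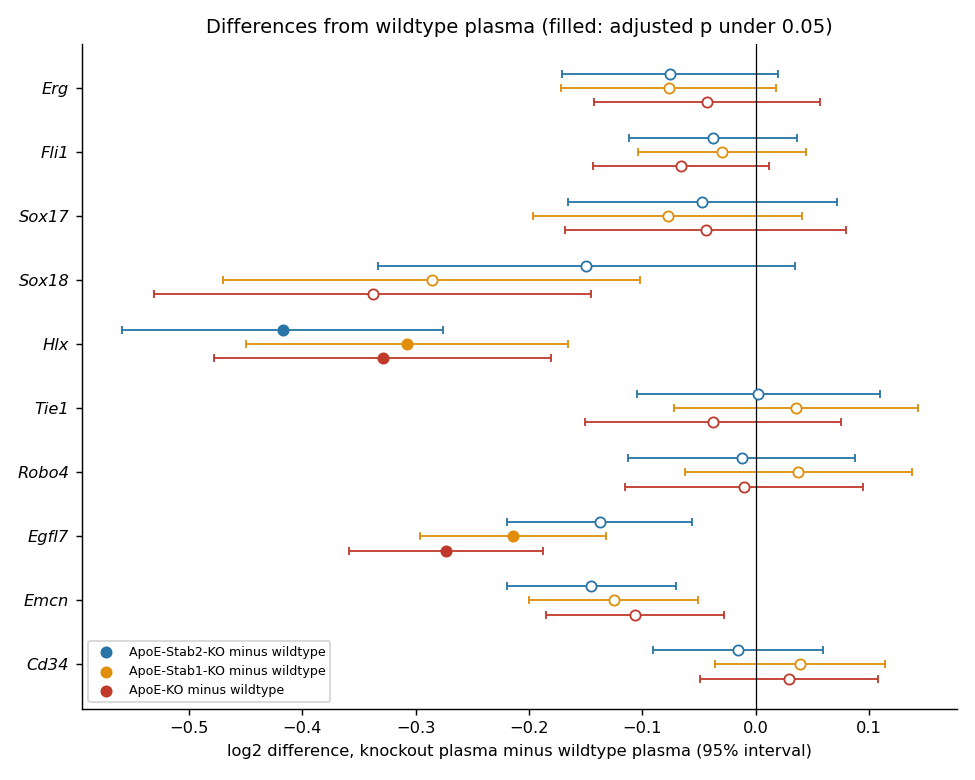
Log2 difference of each of the 10 genes (rows) between knockout and wildtype plasma, with 95% intervals (horizontal axis, log2 units); blue is ApoE-Stab2-KO, orange ApoE-Stab1-KO and red ApoE-KO, and filled points passed an adjusted p of 0.05. Filled points stand at Hlx in all 3 comparisons (-0.42, -0.31 and -0.33) and at Egfl7 for ApoE-Stab1-KO (-0.21) and ApoE-KO (-0.27). All intervals of Erg, Fli1, Sox17, Tie1, Robo4 and Cd34 cross 0, as does that of Sox18 for ApoE-Stab2-KO (-0.33 to 0.03). The remaining intervals lie below 0, those of open points included.

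Erg and Fli1, the ETS factors that sustain the endothelial programme, differed little between plasmas. Erg had a lowest, median and highest log2 level of 10.61, 10.71 and 10.74 with ApoE-Stab2-KO plasma and of 10.61, 10.68 and 10.79 with ApoE-Stab1-KO plasma. It stood at 10.78, 10.76, 10.54, 10.70 and 10.82 in the 5 ApoE-KO arrays and at 10.65, 10.79 and 10.82 with wildtype plasma, so that all groups overlapped. Its log2 differences from wildtype plasma were -0.08, -0.08 and -0.04 for ApoE-Stab2-KO, ApoE-Stab1-KO and ApoE-KO (limma adjusted p = 0.7, 0.563 and 0.839). Fli1 averaged 11.87 ± 0.04 with ApoE-Stab2-KO plasma, 11.87 ± 0.05 with ApoE-Stab1-KO plasma, 11.84 ± 0.06 with ApoE-KO plasma and 11.90 ± 0.03 with wildtype plasma (SD, n = 6, 6, 5 and 6), and its groups overlapped too. The spread of Fli1 within groups (SD 0.0462) was smaller than that of the median gene (0.117), and the 95% intervals of its 3 differences from wildtype plasma reached from -0.14 to 0.04.

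Sox17 and Sox18 encode the SOX factors of the F group. Sox17, the arterial member, averaged 7.32 ± 0.11, 7.29 ± 0.10 and 7.32 ± 0.10 with ApoE-Stab2-KO, ApoE-Stab1-KO and ApoE-KO plasma, against 7.37 ± 0.09 with wildtype plasma, and every group overlapped with the others. Sox18, known for its role in lymphatic and vascular development, had a lowest, median and highest level of 9.31, 9.62 and 9.72 with ApoE-Stab2-KO plasma and of 9.14, 9.47 and 9.65 with ApoE-Stab1-KO plasma. The 5 ApoE-KO arrays read 9.22, 9.32, 9.27, 9.44 and 9.67, and wildtype plasma gave 9.59, 9.68 and 9.86. Of the 17 knockout-plasma arrays, 11 lay below the lowest wildtype array for Sox18, and each knockout group overlapped with wildtype. The difference of Sox18 was -0.15 ± 0.09 (SE) for ApoE-Stab2-KO (limma adjusted p = 0.696), -0.29 ± 0.09 for ApoE-Stab1-KO (0.189) and -0.34 ± 0.09 for ApoE-KO (0.122), none of them past the threshold. The spread of Sox18 within groups was the widest of the 10 genes (SD 0.163). Without ApoE-KO replicate 5, the highest of its group, the ApoE-KO difference was -0.41 and passed the threshold (limma adjusted p = 0.0455; range over the 11 arrays left out in turn 0.0455 to 0.282).

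Hlx, a homeobox transcription factor known from blood cell and gut development and reported to restrain sprouting of human endothelial cells, fell with all 3 knockout plasmas. Its lowest, median and highest levels were 8.01, 8.11 and 8.20 with ApoE-Stab2-KO plasma and 8.10, 8.21 and 8.37 with ApoE-Stab1-KO plasma. The 5 ApoE-KO arrays read 8.11, 8.32, 8.22, 8.16 and 8.16, and wildtype plasma gave 8.33, 8.46 and 8.86. The wildtype arrays were high and spread out, with replicate 1 at 8.86 above the others, and 16 of the 17 knockout-plasma arrays lay below all of them. The 1 that did not was an ApoE-Stab1-KO array at 8.37. Groups without overlap, the knockout plasma lower, were found in 0.514% of all genes for ApoE-Stab2-KO and 0.891% for ApoE-KO. Hlx fell by 0.42 ± 0.07 (SE) on the log2 scale with ApoE-Stab2-KO plasma (limma adjusted p = 0.00546), by 0.31 ± 0.07 with ApoE-Stab1-KO plasma (0.0471) and by 0.33 ± 0.07 with ApoE-KO plasma (0.0367). Of all genes, 8 (0.0324%) were called lower in each of the 3 comparisons, and Hlx was one of them. The ApoE-Stab2-KO call held with each array left out (limma adjusted p = 0.00315 to 0.0209). The ApoE-Stab1-KO call was lost without ApoE-Stab1-KO replicate 1, 2, 3, 4 or 6 or wildtype replicate 1, 2, 4, 5 or 6, and the ApoE-KO call without ApoE-KO replicate 1, 3, 4 or 5 or wildtype replicate 1 or 6, with limma adjusted p-values of up to 0.106 and 0.1.

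**Figure D2:**
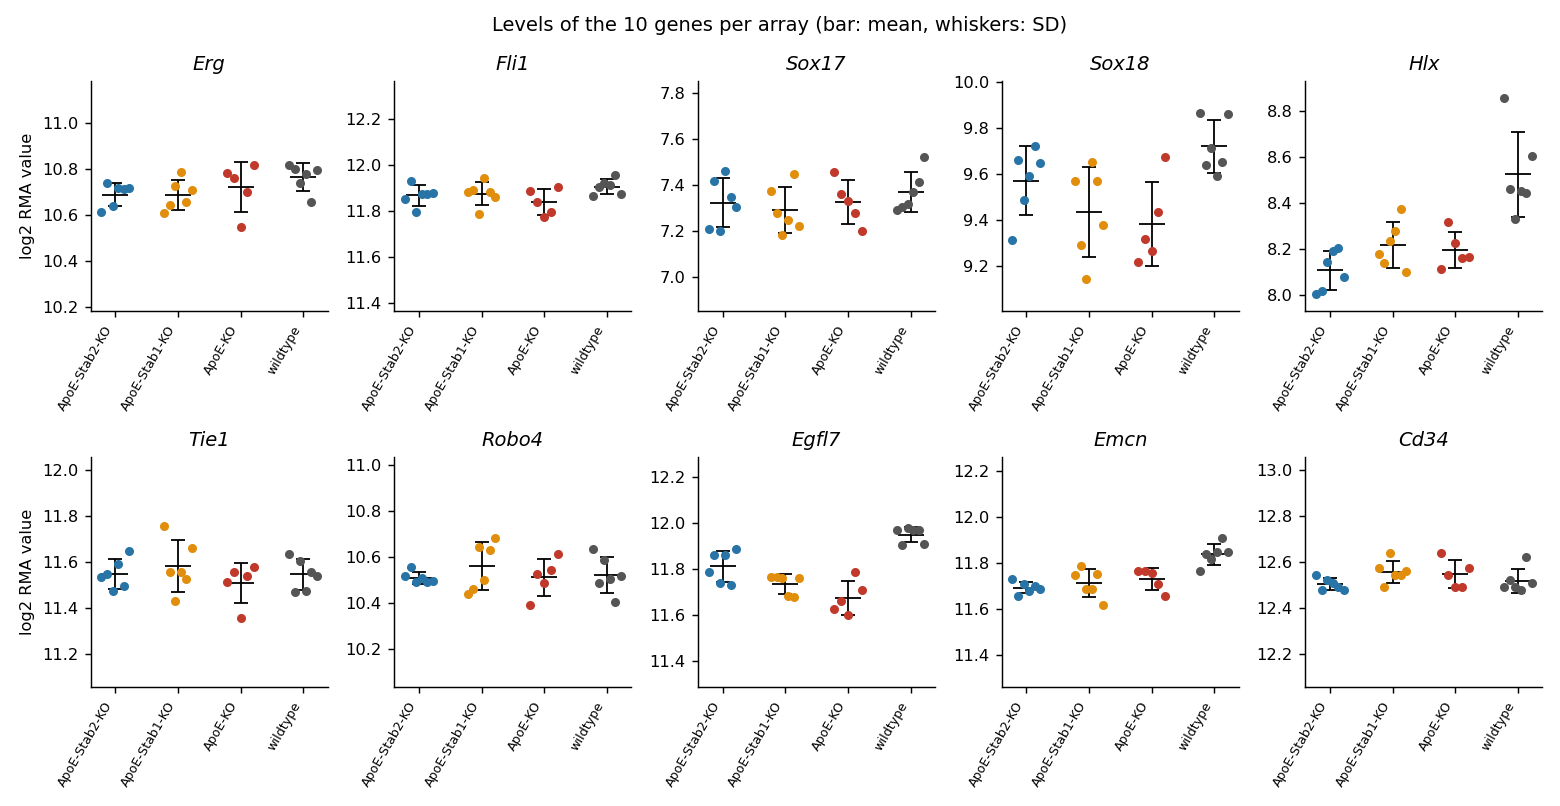
Log2 RMA value of each of the 10 genes in every array (points), with group mean (bar) and SD (whiskers), by plasma group; every panel spans 1 log2 unit, so distances can be compared between panels but levels cannot. Egfl7 and Hlx show wildtype arrays above nearly all others (lowest wildtype array 11.90 for Egfl7 and 8.33 for Hlx), and in Tie1, Robo4 and Cd34 the groups lie on top of each other.

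Tie1 and Robo4 are endothelial receptors. TIE1 pairs with the angiopoietin receptor TEK, and ROBO4 steadies the barrier between endothelial cells. Tie1 averaged 11.55 ± 0.06 with ApoE-Stab2-KO plasma, 11.58 ± 0.11 with ApoE-Stab1-KO plasma, 11.51 ± 0.09 with ApoE-KO plasma and 11.55 ± 0.07 with wildtype plasma. Its differences from wildtype were 0.00, 0.04 and -0.04, and ApoE-KO replicate 3 stood low in its group at 11.36. Robo4 averaged 10.51 ± 0.03, 10.56 ± 0.10 and 10.51 ± 0.08 with ApoE-Stab2-KO, ApoE-Stab1-KO and ApoE-KO plasma, against 10.52 ± 0.08 with wildtype plasma. Neither gene passed in any comparison (limma adjusted p = 0.83 to 0.996 against wildtype), and the 95% intervals of their differences from wildtype lay between -0.15 and 0.14. Tek, the partner of Tie1, differed from wildtype by -0.07, -0.07 and -0.08 (limma adjusted p = 0.826, 0.74 and 0.771).

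Egfl7, which encodes a secreted protein of vascular tube formation, separated the knockout plasmas from wildtype plasma in every array. Its lowest, median and highest log2 levels were 11.73, 11.83 and 11.89 with ApoE-Stab2-KO plasma and 11.68, 11.76 and 11.77 with ApoE-Stab1-KO plasma. The 5 ApoE-KO arrays read 11.63, 11.66, 11.60, 11.79 and 11.71, and wildtype plasma gave 11.90, 11.97 and 11.98. All 17 knockout-plasma arrays lay below all 6 wildtype arrays, which held for 17 genes in all (0.0688%), and the ApoE-Stab1-KO arrays alone lay below wildtype in 0.385% of all genes. The smallest gap was narrow, 11.89 for an ApoE-Stab2-KO array against 11.90 for a wildtype array. Egfl7 fell by 0.21 ± 0.04 (SE) with ApoE-Stab1-KO plasma (limma adjusted p = 0.0122) and by 0.27 ± 0.04 with ApoE-KO plasma (0.00136), to 0.862 and 0.827 times the wildtype level. With ApoE-Stab2-KO plasma the difference was -0.14 ± 0.04 and did not pass the threshold (limma adjusted p = 0.222). The ApoE-KO call held with each array left out (limma adjusted p = 0.00066 to 0.00743), and so did the ApoE-Stab1-KO call (0.0163 to 0.0362), although the ApoE-Stab1-KO call was lost when the fit used the arrays of these 2 groups alone (0.0712; range over 8 settings 0.00139 to 0.0712). Differences between groups made up 79.6% of the variance of Egfl7 over the 23 arrays, against 14.6% for the median gene, 67.9% for Hlx, 64.1% for Emcn, 43.7% for Sox18 and 7.65% to 23% for the other 6.

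Egfl7 is described together with miR-126 because the microRNA gene lies within it. In RefSeq on GRCm38.p6 the hairpin of Mir126a lies at chr2:26591357-26591429 on the plus strand, inside Egfl7 and on the same strand. The hairpin is given with the mature 3p strand in capitals, and the mature strand, at chr2:26591402-26591423, with its seed (bases 2 to 8) in capitals.
Mir126a hairpin: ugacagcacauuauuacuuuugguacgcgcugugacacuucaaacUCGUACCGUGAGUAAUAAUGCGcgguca
mmu-miR-126a-3p: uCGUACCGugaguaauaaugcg
RefSeq held 3 transcript starts for Egfl7, and the 250 bases before the first and second, at chr2:26580833-26581082 and chr2:26583615-26583864 on the plus strand, are shown with each GGAA, the core letters that ETS factors bind, or its complement TTCC in capitals. The 250 bases before the start of Hlx, at chr1:184732494-184732743 on the minus strand, are set beside them as the window of the other called gene.
Egfl7 start 1: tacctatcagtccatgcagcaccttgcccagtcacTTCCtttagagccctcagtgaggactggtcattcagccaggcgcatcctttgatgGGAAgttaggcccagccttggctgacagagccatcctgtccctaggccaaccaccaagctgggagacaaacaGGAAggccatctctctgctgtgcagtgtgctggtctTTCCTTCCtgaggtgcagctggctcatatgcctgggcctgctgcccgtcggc
Egfl7 start 2: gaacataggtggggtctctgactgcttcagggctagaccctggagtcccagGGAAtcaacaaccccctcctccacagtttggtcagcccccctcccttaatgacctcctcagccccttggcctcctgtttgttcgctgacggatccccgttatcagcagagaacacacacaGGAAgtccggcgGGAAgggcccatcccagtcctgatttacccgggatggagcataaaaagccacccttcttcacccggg
Hlx start 1: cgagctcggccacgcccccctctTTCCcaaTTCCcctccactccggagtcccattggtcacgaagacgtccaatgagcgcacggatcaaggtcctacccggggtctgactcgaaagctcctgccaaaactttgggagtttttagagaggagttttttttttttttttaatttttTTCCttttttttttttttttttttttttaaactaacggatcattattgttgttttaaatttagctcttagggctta
GGAA, searched on both strands, stood 5 times in the first Egfl7 window, 3 times in the second, once in the third and 3 times in the Hlx window. It is common: 93.4% of 32851 windows of this length hold it, with a median of 3. The longer AGGAAGT, which contains GGAA, was found in 2 of the 11 windows of the 7 genes with an entry (both before Egfl7, starts 1 and 2) and in 7.69% of all windows. CGGAAGT, which also contains GGAA, was in 0 of the 11 and in 4.92% of all windows, and ACAAT, letters bound by SOX factors, in 5 of the 11, Hlx among them, and in 27.7%. A match of letters is a description of the window and not a bound site.

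Mir126a, the gene of the microRNA inside Egfl7, was measured by its own probe set, on total RNA labelled as cRNA. Its value is therefore a level of transcript and not of mature microRNA. Whether the probe set also reads the transcript of Egfl7, on the same strand, was not tested. The levels of Mir126a and Egfl7 may therefore not be separate measures. Mir126a had a lowest, median and highest log2 level of 7.64, 7.73 and 7.96 with ApoE-Stab2-KO plasma and of 7.01, 7.44 and 7.74 with ApoE-Stab1-KO plasma. The 5 ApoE-KO arrays read 7.08, 6.98, 7.26, 7.46 and 7.60, and wildtype plasma gave 7.73, 7.94 and 8.16. The ApoE-KO arrays lay below all wildtype and below all ApoE-Stab2-KO arrays, as for 0.891% and 0.551% of all genes. Mir126a fell by 0.65 ± 0.12 (SE) with ApoE-KO plasma, to 0.636 times the wildtype level (limma adjusted p = 0.00884). The differences with ApoE-Stab2-KO plasma (-0.15 ± 0.11, 0.781) and ApoE-Stab1-KO plasma (-0.50 ± 0.11, 0.0531) did not pass. That with ApoE-Stab1-KO plasma lay near the threshold: it passed in 3 of 8 other settings (limma adjusted p = 0.0322 to 0.16) and without ApoE-Stab1-KO replicate 1 or 6 (0.0409 and 0.0325; range over the 12 arrays left out in turn 0.0325 to 0.124). The group means of Mir126a and of Egfl7 had the same order, lowest with ApoE-KO, then ApoE-Stab1-KO, ApoE-Stab2-KO and wildtype plasma. Of the steps between neighbours in that order, none passed the test for either gene, that between ApoE-Stab2-KO and wildtype plasma included. Over the 23 arrays Pearson's r of both levels was 0.80 and Spearman's rho 0.82, given as a description because the arrays share the plasma groups.

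**Figure D3:**
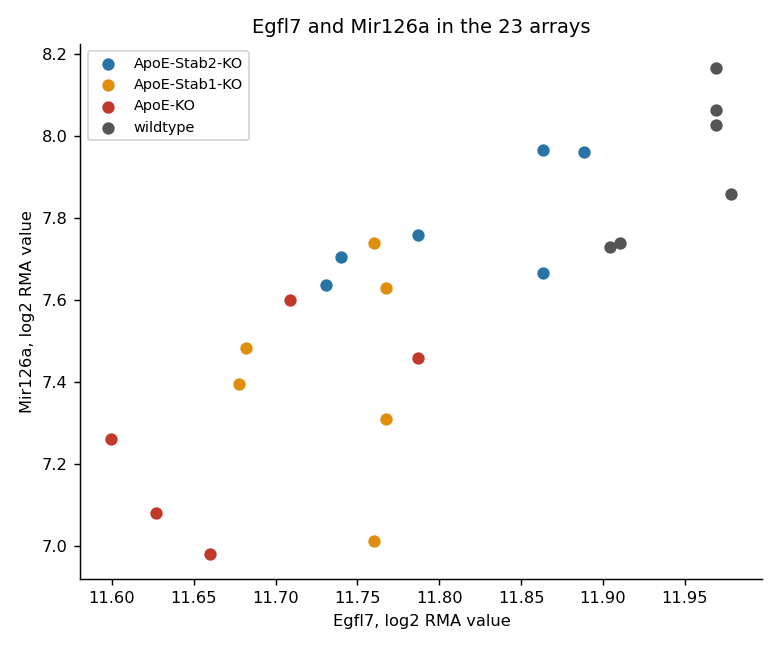
Log2 level of Mir126a (vertical axis) against that of Egfl7 (horizontal axis) in the 23 arrays, coloured by plasma group. The wildtype arrays lie at the right with Egfl7 at 11.90 or more, the ApoE-KO arrays at the lower left, and the 2 levels went together over all arrays (Pearson r = 0.80) and less so within groups (0.45).

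Emcn and Cd34 encode sialomucins of the endothelial surface, which keep leukocytes off the vessel wall or bind their selectins. Emcn had a lowest, median and highest level of 11.66, 11.70 and 11.73 with ApoE-Stab2-KO plasma and of 11.62, 11.72 and 11.79 with ApoE-Stab1-KO plasma. The 5 ApoE-KO arrays read 11.77, 11.77, 11.76, 11.71 and 11.66, and wildtype plasma gave 11.77, 11.84 and 11.91. The ApoE-Stab2-KO arrays lay below all wildtype arrays, as 0.514% of all genes did, while the other groups overlapped with wildtype. The difference of Emcn was -0.14 ± 0.04 (SE) for ApoE-Stab2-KO, -0.13 ± 0.04 for ApoE-Stab1-KO and -0.11 ± 0.04 for ApoE-KO, with limma adjusted p-values of 0.128, 0.143 and 0.271. None passed, although the ApoE-Stab2-KO difference did when limma's prior variance was allowed a trend and made robust (0.0357; range over 8 settings 0.0357 to 0.22). Cd34 averaged 12.50 ± 0.03, 12.56 ± 0.05 and 12.55 ± 0.06 with ApoE-Stab2-KO, ApoE-Stab1-KO and ApoE-KO plasma, against 12.52 ± 0.05 with wildtype plasma. Its differences of -0.02, 0.04 and 0.03 had 95% intervals from -0.09 to 0.11.

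Comparisons of the double knockouts with ApoE-KO plasma ask what the further loss of a Stabilin in the donor changes when apolipoprotein E is already absent. That of ApoE-Stab2-KO with ApoE-Stab1-KO plasma sets the double knockouts against each other. None of the 10 genes was called between ApoE-Stab2-KO and ApoE-KO plasma (0.0243% of all genes were), between ApoE-Stab1-KO and ApoE-KO plasma (0.00405%) or between ApoE-Stab2-KO and ApoE-Stab1-KO plasma (0.0486%). By limma at an unadjusted p under 0.05 the counts were 1, 0 and 0 of 10, against 8.36%, 5.57% and 11% of all genes. The 1 gene was Egfl7, which stood 0.14 ± 0.04 (SE) higher with ApoE-Stab2-KO than with ApoE-KO plasma (95% interval 0.05 to 0.22, limma adjusted p = 0.322). Its differences were 0.06 (95% interval -0.03 to 0.15) for ApoE-Stab1-KO minus ApoE-KO and 0.08 (-0.01 to 0.16) for ApoE-Stab2-KO minus ApoE-Stab1-KO. Hlx differed by -0.09 (95% interval -0.24 to 0.06), 0.02 (-0.13 to 0.17) and -0.11 (-0.25 to 0.03) for ApoE-Stab2-KO minus ApoE-KO, ApoE-Stab1-KO minus ApoE-KO and ApoE-Stab2-KO minus ApoE-Stab1-KO. For Sox18 the same 3 differences were 0.19 (95% interval -0.005 to 0.38), 0.05 (-0.14 to 0.25) and 0.14 (-0.05 to 0.32). The differences of Erg, Fli1, Sox17, Tie1, Robo4, Emcn and Cd34 in these comparisons ran from -0.06 to 0.07. Mir126a was 0.50 ± 0.12 higher with ApoE-Stab2-KO than with ApoE-KO plasma, with no overlap of arrays (as for 0.551% of all genes in that direction), and did not pass (limma adjusted p = 0.209).

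Other endothelial genes were read from 2 lists that leave out the 10. Of 29 further transcription factors of endothelium, 0 were called in any comparison, where 0.00405% to 0.53% of all genes were. For a list of this length a count of 0 says little. Their median difference from wildtype was -0.03 for ApoE-Stab2-KO, -0.03 for ApoE-Stab1-KO and -0.06 for ApoE-KO. In that order 19, 19 and 21 of the 29 differences were below 0, against 51%, 48.2% and 48.8% over all genes. By limma at an unadjusted p under 0.05, 2, 6 and 7 of the 29 were lower and 0, 0 and 1 higher, where 4.22%, 5.55% and 5.12% of all genes were lower. Ets1, the ETS paralog of Erg and Fli1, had all 17 knockout-plasma arrays below all wildtype arrays (highest 9.60, lowest wildtype 9.62). That held for 0.0688% of all genes. The differences of Ets1 were -0.15 ± 0.04 (SE), -0.13 ± 0.04 and -0.17 ± 0.04 and did not pass (limma adjusted p = 0.198, 0.193 and 0.0725). Sox7, the paralog of Sox17 and Sox18, differed by 0.14, 0.05 and 0.10 (limma adjusted p = 0.63, 0.876 and 0.709). Of 25 further endothelial markers, 1, 1 and 2 were called lower and 0 higher with ApoE-Stab2-KO, ApoE-Stab1-KO and ApoE-KO plasma, where 0.0648%, 0.19% and 0.19% of all genes were called lower. Their medians were -0.04, -0.08 and -0.12, and 19, 21 and 24 of the 25 differences were below 0, against 51%, 48.2% and 48.8% over all genes. By limma at an unadjusted p under 0.05, 3, 8 and 14 of them were lower and 1, 1 and 0 higher, where 4.22%, 5.55% and 5.12% of all genes were lower.

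Mcam, an adhesion molecule of endothelial junctions also called CD146, was the marker called in all 3 comparisons. Its levels averaged 9.61 ± 0.08 with ApoE-Stab2-KO plasma, 9.67 ± 0.05 with ApoE-Stab1-KO plasma and 9.65 ± 0.05 with ApoE-KO plasma, against 9.93 ± 0.04 with wildtype plasma. All 17 knockout-plasma arrays lay below the wildtype arrays, as for 0.0688% of all genes. Mcam fell by 0.31 ± 0.04 (SE), 0.26 ± 0.04 and 0.27 ± 0.04 on the log2 scale (limma adjusted p = 0.000385, 0.00284 and 0.00148). Cldn5, the claudin of endothelial tight junctions, was 11.14 ± 0.04 with ApoE-Stab2-KO plasma, 10.88 ± 0.16 with ApoE-Stab1-KO plasma, 10.87 ± 0.09 with ApoE-KO plasma and 11.13 ± 0.05 with wildtype plasma. It fell with ApoE-KO plasma (-0.27 ± 0.06, limma adjusted p = 0.0459), a call that was lost with 10 of the 11 arrays left out in turn (up to 0.151), and its ApoE-Stab1-KO difference of -0.25 ± 0.06 did not pass (0.0508). This difference passed in 3 of 8 other settings (limma adjusted p = 0.0191 to 0.24) and without ApoE-Stab1-KO replicate 2 or 4 (0.0407 and 0.0346; range over the 12 arrays left out in turn 0.0346 to 0.108), and the ApoE-KO call was also lost with the replicate number as a block (0.0606). Vwf, the clotting factor stored by endothelium, differed by 0.43 ± 0.12, 0.27 ± 0.12 and -0.06 ± 0.13 (limma adjusted p = 0.231, 0.414 and 0.932). The pan-endothelial genes Pecam1 (-0.02, 0.02 and -0.01), Cdh5 (-0.06, -0.09 and -0.05) and Kdr (0.07, 0.09 and 0.03) passed in no comparison. In the list of partners and relatives of the 10 genes, Mir126a with ApoE-KO plasma was the 1 of 13 measured genes that was called. With that plasma 0.19% of all genes were called lower, among them Egfl7, inside which Mir126a lies.

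**Figure D4:**
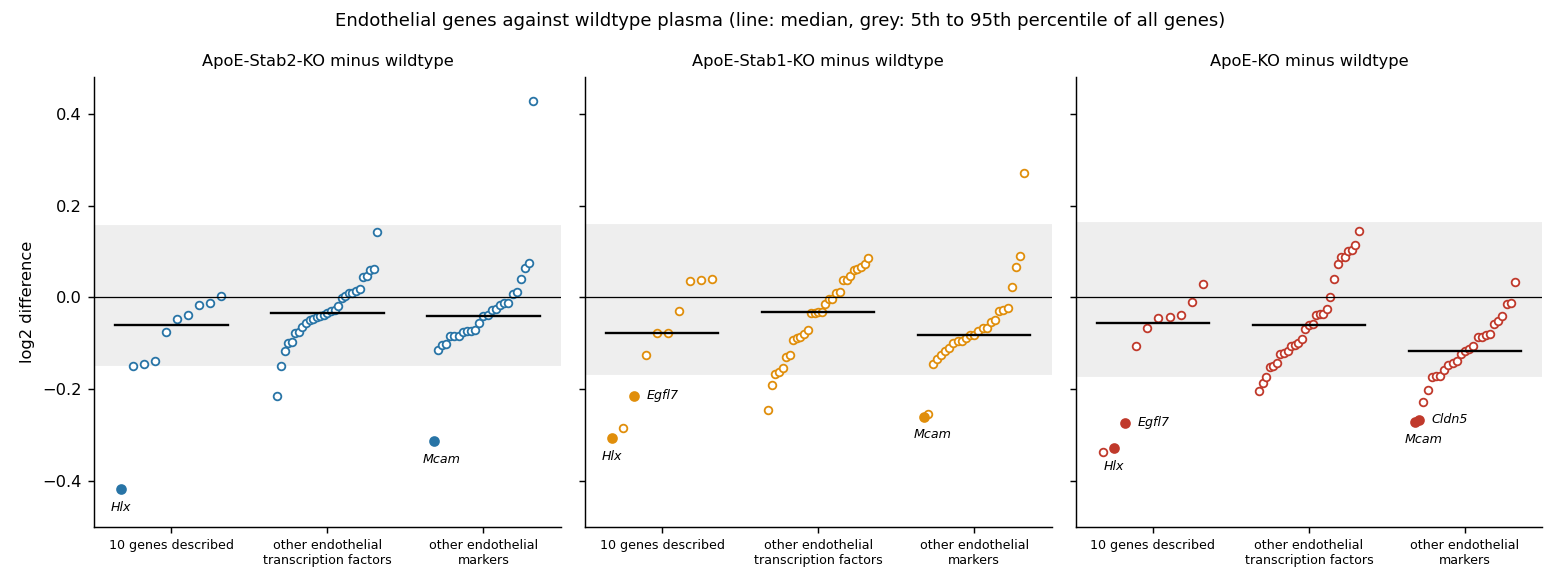
Log2 difference from wildtype plasma (vertical axis) of the 10 genes, of 29 other endothelial transcription factors and of 25 other endothelial markers, 1 point per gene, in panels for ApoE-Stab2-KO, ApoE-Stab1-KO and ApoE-KO plasma; lines are list medians, grey bands the 5th to 95th percentile of all genes, and filled points passed an adjusted p of 0.05. Filled points are Hlx and Mcam in all panels, Egfl7 with ApoE-Stab1-KO and ApoE-KO plasma and Cldn5 with ApoE-KO plasma, while most points lie inside the bands.

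The order of the group means differed between the 10 genes. Wildtype plasma had the highest mean for Erg, Fli1, Sox17, Sox18, Hlx, Egfl7 and Emcn, as 25.3% of all genes did, and ApoE-Stab1-KO plasma for Tie1, Robo4 and Cd34. The lowest mean was with ApoE-KO plasma for Egfl7, Sox18, Fli1 and Tie1, as for 23.4% of all genes, with ApoE-Stab2-KO plasma for Hlx, Emcn, Robo4 and Cd34, and with ApoE-Stab1-KO plasma for Erg and Sox17. Between neighbours in these orders, the step of Hlx from ApoE-Stab1-KO to wildtype plasma (0.31) was the 1 that passed the test.

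Likeness to Egfl7, the gene of the 10 with the smallest F-test p, was measured as Pearson's r over the 23 arrays, as a description. The points share the plasma groups, so a difference between groups alone gives a high r, and the value within groups is given beside it. Genes with predicted or Riken names were left out. The protein-coding genes highest in r were Ift172, a gene of transport in cilia (0.84, within groups 0.52), Stx6, a gene of vesicle fusion (0.80, 0.38), Cstad (0.79, 0.47), Fgd5, an endothelial regulator of CDC42 (0.78, 0.54), and Stab1, the gene of Stabilin-1 in the cells themselves (0.78, 0.62). Lowest in r were the cholesterol synthesis genes Sqle (-0.85, -0.32) and Lss (-0.83, -0.09), the membrane protease gene Adam9 (-0.82, -0.42), the vesicle sorting gene Vps33b (-0.81, -0.40) and Itgav, the gene of integrin alpha V (-0.80, -0.38). Among the other 9 genes, r with Egfl7 was 0.61 for Sox18 and 0.49 for Hlx, and lowest for Cd34 (-0.33). Within groups these 3 values were 0.08, -0.28 and -0.15.

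**Figure D5:**
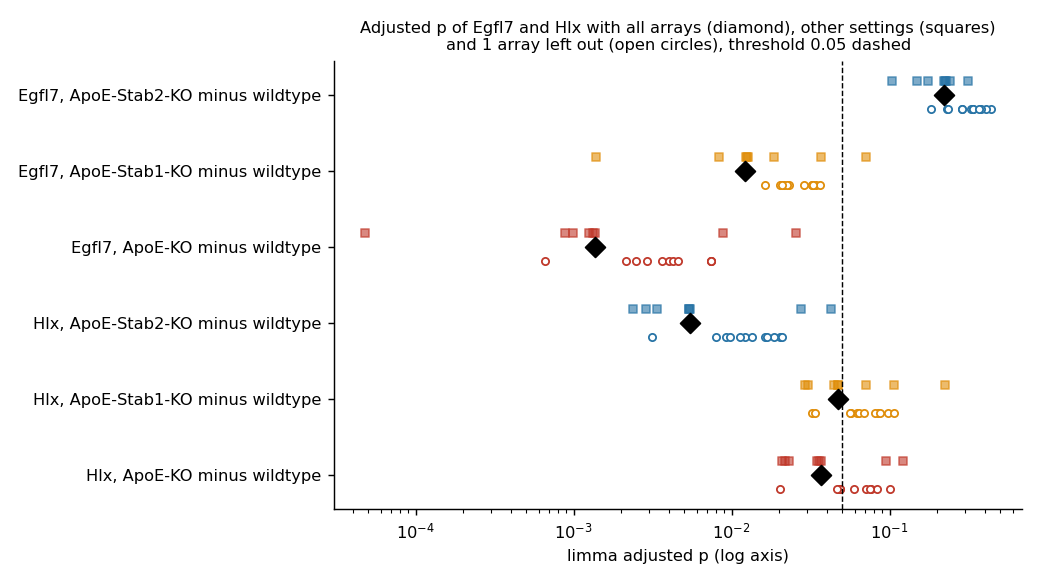
Limma adjusted p (log axis) of Egfl7 and Hlx in the 3 comparisons with wildtype plasma, with all arrays (diamonds), under 8 other settings (squares) and with 1 array left out at a time (open circles); the dashed line is the threshold of 0.05. The points of Egfl7 with ApoE-KO plasma (at most 0.0254) and of Hlx with ApoE-Stab2-KO plasma (at most 0.0426) all lie left of the line, while those of Hlx with ApoE-Stab1-KO and ApoE-KO plasma stand on both sides of it.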

How the data were processed

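Gene expression was measured on Affymetrix arrays hybridised with biotin-labelled cRNA from 23 samples. The deposited values are log2 RMA intensities, per the submitters' processing notes and the range of the values, in 1 table of 25428 probe sets; its version and the build of the annotation were not given in the sources used here. Because the authors' normalization gives all arrays 1 distribution, a shift shared by all genes would not show. Platform annotation gave 1 symbol to 24705 probe sets, several to 0 and none to 723, and for a symbol on more than 1 probe set the brighter was kept, which left 24704 genes with no filter on dim ones.

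Groups came from the sample labels. Limma 3.58.1 in R 4.3.3 was fitted with 1 mean per group over all 23 arrays (19 residual and 4.19 prior degrees of freedom), and the 6 pairwise comparisons and the F-test were each adjusted by Benjamini-Hochberg over all genes. The fit was tested on simulated data. Means are given ± SD and differences ± SE with limma's 95% intervals. No pair of arrays held identical values (0 pairs), and the number of arrays limits the precision. The labels do not say that replicate numbers pair the samples. Deviations of same-numbered arrays correlated at -0.10 to 0.11 over 33 pairs. No such value was computed for differently numbered arrays, so pairing was not tested.

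The 10 genes, the 8 gene lists (98 genes, 94 measured) and the rule for named genes were chosen with earlier results of these data known, so none of the lists is independent evidence. That rule took all 10 genes, called genes of each list (up to 6 a list), and Pecam1, Cdh5, Kdr, Tek, Vwf, Mir126a, Sox7 and Ets1 whatever their result. It also took the 5 protein-coding genes most and 5 least like Egfl7, leaving out predicted and Riken names. Lyve1, Cd68, Ptprc, Prox1, Flt4 and Pdpn were named with their values in view. Other settings tried were a repeat of quantile normalization, median centring, genes above the median level alone, a trended robust prior, array weights, a block for the replicate number, all probe sets as separate features, fits on the compared groups alone, and leaving out each array. Sequences are from RefSeq, GRCm38.p6; 7 of the 10 genes had a promoter entry. Plots were made in Python 3.11.15 with matplotlib 3.10.9.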

Additional observations from a re-analysis of the deposited data

Results flagged for a closer look

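Among 116 checks of a group for a sample far from the others, 8 found one, and chance gives about 1 in 20. ApoE-Stab1-KO replicate 3 was the lowest of its group for Cldn5 (10.57, next 10.87), for Vwf (7.83, next 8.34), for the mean of the 25 other endothelial markers (10.16, next 10.28) and for the mean of the 29 other endothelial transcription factors (8.05, next 8.12). Wildtype replicate 5 was the highest of its group for Cd34 (12.62, next 12.52). ApoE-KO replicate 3 was the lowest of its group for Tie1 (11.36, next 11.52). ApoE-KO replicate 2 was the highest of its group for the means of the lymphatic list (7.73, next 7.67) and of the macrophage and leukocyte list (4.71, next 4.64). Cldn5 and Vwf are among the 25 markers, so these flags overlap. Whether anything beyond chance sets these arrays apart was not tested.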

How the results depend on the processing

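Quantile normalization again, median centring, genes above the median level and each probe set as its own feature changed no call of the 10 genes. Called counts of the 10 moved in these cases, and the cause was not tested. With a trended robust prior 2 were called for ApoE-Stab2-KO minus wildtype (Emcn beside Hlx), against 1, and 3 in the F-test, against 2. With array weights 1 was called for ApoE-Stab1-KO minus wildtype, against 2 (Hlx 0.0712; range over settings 0.0293 to 0.224). The replicate number was also used as a block, a pairing that the labels do not state. That fit called 1 for ApoE-Stab1-KO minus wildtype, 1 for ApoE-KO minus wildtype and 1 in the F-test. Each stood against 2 (Hlx, limma adjusted p = 0.106 and 0.0949). With only the arrays of the groups compared, and so fewer samples, 0 were called for ApoE-Stab1-KO minus wildtype and 1 for ApoE-KO minus wildtype (Hlx 0.122; range over settings 0.0207 to 0.122). With each array left out, 1 to 2 were called for ApoE-Stab1-KO minus wildtype and for ApoE-KO minus wildtype, 1 for ApoE-Stab2-KO minus wildtype, 2 in the F-test and 0 among knockout plasmas.

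Over all genes, calls moved by more than 1.5 times for ApoE-Stab1-KO minus wildtype (90, against 151 among genes above the median level and 21 with these groups alone), ApoE-KO minus wildtype (131, against 212 with array weights and 80 with these groups alone) and the F-test (135, against 88 with the block). Among knockout plasmas they moved for ApoE-Stab2-KO minus ApoE-KO (6, against 2 above the median level, 18 with weights, 0 with the block and 1 with these groups alone), ApoE-Stab1-KO minus ApoE-KO (1, against 2 with the trended prior, 0 with the block and 0 with these groups alone) and ApoE-Stab2-KO minus ApoE-Stab1-KO (12, against 21 with the trended prior and 4 with these groups alone). With each array left out they ran from 20 to 41 for ApoE-Stab2-KO minus wildtype, 54 to 124 for ApoE-Stab1-KO minus wildtype, 55 to 109 for ApoE-KO minus wildtype, 0 to 12 for ApoE-Stab2-KO minus ApoE-KO, 0 to 2 for ApoE-Stab1-KO minus ApoE-KO, 8 to 37 for ApoE-Stab2-KO minus ApoE-Stab1-KO and 87 to 197 in the F-test.

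Signs turned only for differences near 0. Array weights gave -0.00184 for Cd34 in ApoE-Stab1-KO minus ApoE-KO, 0.00231 for Robo4 in ApoE-Stab2-KO minus ApoE-KO and -0.0102 for Erg in ApoE-Stab2-KO minus ApoE-Stab1-KO. With each array left out, ApoE-Stab2-KO minus wildtype ran from -0.0178 to 0.0201 for Tie1, -0.0352 to 0.0101 for Robo4, -0.0239 to 0.00462 for Cd34 and -0.00378 to 0.0228 for Cldn5. ApoE-KO minus wildtype ran from -0.0668 to 0.00104 for Erg, -0.0546 to 0.000134 for Tie1 and -0.0353 to 0.0199 for Robo4. ApoE-Stab2-KO minus ApoE-KO ran from -0.0345 to 0.0299 for Sox17 and -0.0319 to 0.0233 for Robo4. ApoE-Stab1-KO minus ApoE-KO ran from -0.00959 to 0.0517 for Hlx, -0.0371 to 0.000543 for Emcn, -0.00591 to 0.0324 for Cd34, -0.00246 to 0.0316 for Mcam and -0.0163 to 0.0731 for Cldn5. ApoE-Stab2-KO minus ApoE-Stab1-KO ran from -0.0148 to 0.0215 for Erg, -0.0255 to 0.00638 for Fli1 and -0.0639 to 0.00176 for Tie1.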

Other observations

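The 10 genes did not vary as 1 block over the 23 arrays. Of their 45 pairs, 35 had a Pearson r above 0, and r ran from -0.46 for Robo4 with Emcn to 0.61 for Sox18 with Egfl7. Within plasma groups 26 of the 45 were above 0, the correlation of Robo4 and Emcn was -0.76, and that of Sox18 and Egfl7 was 0.08. These pairs were picked as the extremes after their values were seen, and no test was made.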
